A study of Danio rerio with 30 samples.

Results

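The genes described here are the cytosolic ribosomal protein genes of the zebrafish, followed across 12 RNA-seq libraries of the posterior lateral line. They were taken by name. A gene of the count table entered when its symbol, ignoring case, began with rpl, rps or rplp and a digit, or was rpsa, and names beginning with rps6k (the S6 kinases) were left out. The rule took 84 of 32520 genes, and no gene in the table carried the name rpsa. Of the 84, 36 are proteins of the small (40S) subunit or their paralogs and 46 are proteins of the large (60S) subunit, its P stalk or their paralogs. The last 2, RPL7L1 and rps19bp1, bear ribosomal names but encode nucleolar factors and not proteins of the mature ribosome. The set passed a filter on low counts with 83 genes, against 22000 of all genes. The gene left out, RPL26 (ENSDARG00000102317), had between 0 and 6 counts per library.

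Ribosomal proteins are made in the cytoplasm, imported into the nucleolus and fitted onto ribosomal RNA to form the small subunit, which decodes the mRNA, and the large subunit, which forms the peptide bond. Their mRNAs are abundant in most cells and share a terminal oligopyrimidine tract at the 5′ end, through which the mTOR kinase pathway controls their translation. Neuromasts, the sense organs of the lateral line, hold mechanosensory hair cells and the support cells that divide and replace hair cells killed by neomycin, an aminoglycoside antibiotic.

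Cells positive for mCherry were sorted from larvae of the she:mcherry line at 5 days post fertilization and are labelled neuromast cells. Summed markers of hair cells and of support cells reached at least 1560 and 3300 CPM in every library. Those of epidermis reached at least 2410 CPM in every library. CPM here are read counts scaled to a common library size with TMM factors, which adjust for shifts in the composition of a library. There were 4 groups of 3 libraries. The first was made from isl1a psi97 mutants that recovered for 3 h after 30 min in 300 uM neomycin, and the second from their siblings treated in the same way. The third was made from isl1a psi97 mutants in homeostasis, meaning without neomycin, and the last from siblings in homeostasis. All 12 libraries share the reporter line, and the genotype of the siblings is labelled only as sibling. Each group is described as a biological triplicate, and nothing in the labels ties a replicate to a clutch of its own. The p-values below therefore measure how far these particular samples differ.

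The libraries held 23918226 to 30354161 counts in genes. ISL1, the gene that is mutated, had between 0 and 35 counts in the 6 mutant libraries, against 3351 to 6634 in the 6 sibling libraries. A single library, replicate 2 of the siblings at 3 h, differed from the remaining 11. Its TMM scaling factor was 0.756, against 0.916 to 1.1 in the others, and its chi-square per degree of freedom against replicates 1 and 3 was 278 and 241, against 14.2 to 83.6 for every other pair of replicates. Its summed levels of liver markers (5070 CPM, against at most 2870 elsewhere), of neuron markers (334 CPM, against at most 171), of support cell markers (5830 CPM, against at most 4050) and of leukocyte markers (265 CPM, against at most 214) were the highest of the 12 libraries, with 8 of 8 liver names, 7 of 7 neuron names, 8 of 8 support names and 6 of 8 leukocyte names matched and none at 0 throughout. Single genes held a large part of its neuron and support sums. STMN1 (ENSDARG00000004169) had 235 CPM, against 87.6 and 102 CPM in sibling replicates 1 and 3 at 3 h. sox21a had 2290 CPM, against 612 and 761 CPM. Most other genes of both lists also exceeded replicates 1 and 3. SYT1 (5.63, against 9.76 and 5.95 CPM), ELAVL4 (4.97, against 4.2 and 5.82), EYA1 (1390, against 1370 and 1490) and krt15 (306, against 326 and 331) did not exceed both. Liver markers summed to 590 to 1780 CPM in mutants and 769 to 5070 CPM in siblings at 3 h, against 216 to 1380 CPM in mutants and 1230 to 2800 CPM in siblings in homeostasis. Support markers summed to 3300 to 3930 CPM in mutants and 3330 to 5830 CPM in siblings at 3 h, against 3660 to 3710 CPM in mutants and 3610 to 4050 CPM in siblings in homeostasis. Their list includes ISL1, the mutated gene, at 107 to 289 CPM in siblings and at most 1.49 CPM in mutants. Leukocyte markers summed to 96 to 185 CPM in mutants and 150 to 265 CPM in siblings at 3 h. In homeostasis they summed to 65.3 to 95.7 CPM in mutants and 31.5 to 78.6 CPM in siblings. All 6 libraries at 3 h lay above all 6 in homeostasis, in mutants only just (96 against 95.7 CPM). LCP1, on this list, overlapped, with 51.5 CPM in mutant replicate 3 at 3 h and 59.2 CPM in mutant replicate 1 in homeostasis. Exocrine pancreas markers (4 of 7 names) summed to 126 to 715 CPM in mutants and 874 to 5530 CPM in siblings at 3 h. In homeostasis mutants had 245 to 941 and siblings 540 to 3330 CPM. Sibling replicate 2 at 3 h (5320 CPM) was not the highest. Erythrocyte markers (6 of 8 names) summed to 581 to 1210 CPM in mutants and 234 to 486 CPM in siblings at 3 h. In homeostasis mutants had 883 to 1240 and siblings 99.3 to 188 CPM. Mutants lay above siblings at both times. Epidermis markers (7 of 8 names) summed to 2410 to 3010 CPM in mutants and 2870 to 3310 CPM in siblings at 3 h. In homeostasis mutants had 2530 to 3210 and siblings 2990 to 3130 CPM. Skeletal muscle markers summed to 74.9 to 120 CPM in mutants and 67 to 82.5 CPM in siblings at 3 h. In homeostasis mutants had 125 to 213 and siblings 46.4 to 61.1 CPM. Ionocyte markers ranged from 181 to 307 CPM over all libraries. The part of these markers in the results was not tested. The counts and medians of the set are therefore given with and without sibling replicate 2 at 3 h.

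Ribosomal protein mRNA made up a larger part of the transcriptome 3 h after neomycin than in homeostasis, in mutants and in siblings. In mutants at 3 h the 84 genes took 2.27%, 2.43% and 2.22% of the counts in genes. In siblings at 3 h they took 2.80%, 3.39% and 2.55%. In homeostasis the shares were 1.54%, 1.85% and 1.84% in mutants and 1.65%, 1.44% and 1.75% in siblings. All 6 libraries at 3 h lay above all 6 in homeostasis, and siblings lay above mutants at 3 h without overlap, while the genotypes overlapped in homeostasis. The means were 2.31 ± 0.107% in mutants and 2.91 ± 0.430% in siblings at 3 h, and 1.75 ± 0.175% in mutants and 1.62 ± 0.160% in siblings in homeostasis (SD, n = 3 each). Without the deviating library the sibling mean at 3 h was 2.67 ± 0.181% (n = 2), and both remaining sibling libraries still lay above the 3 mutant libraries.

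The same sums in CPM were 21805, 26471 and 21639 CPM in mutants at 3 h and 25558, 44838 and 23842 CPM in siblings at 3 h. They were 14512, 18336 and 17172 CPM in mutants and 15891, 14646 and 18015 CPM in siblings in homeostasis. On this scale the genotypes overlapped at 3 h, with replicates 1 and 3 of the siblings among the mutant values, and replicate 2 lay far above them. Libraries of the same number at 3 h deviated together, a pairing read from these data and not from the labels. As shares of counts the genotypes did not overlap, so any pairing puts mutants lower in 3 of 3 pairs. In CPM mutants were lower in 3 of 3 pairs of the same number. With mutant replicate 2 set against sibling replicate 1 or 3 this would not hold. The mean at 3 h was 1.40 times that in homeostasis for mutants and 1.94 times for siblings, or 1.53 times for siblings without replicate 2. Mutants at 3 h reached 0.742 of the sibling mean with all libraries and 0.943 without sibling replicate 2. In homeostasis mutants reached 1.03 of the sibling mean. By total counts the values at 3 h were 0.792 with all libraries and 0.862 without sibling replicate 2. Mutant replicate 2, kept in both, was the highest mutant library at 3 h for 78 of the 83 genes. Both libraries numbered 2 at 3 h were not left out together. Fewer cells of a type and less RNA per cell cannot be told apart in such bulk samples.

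**Figure D1:**
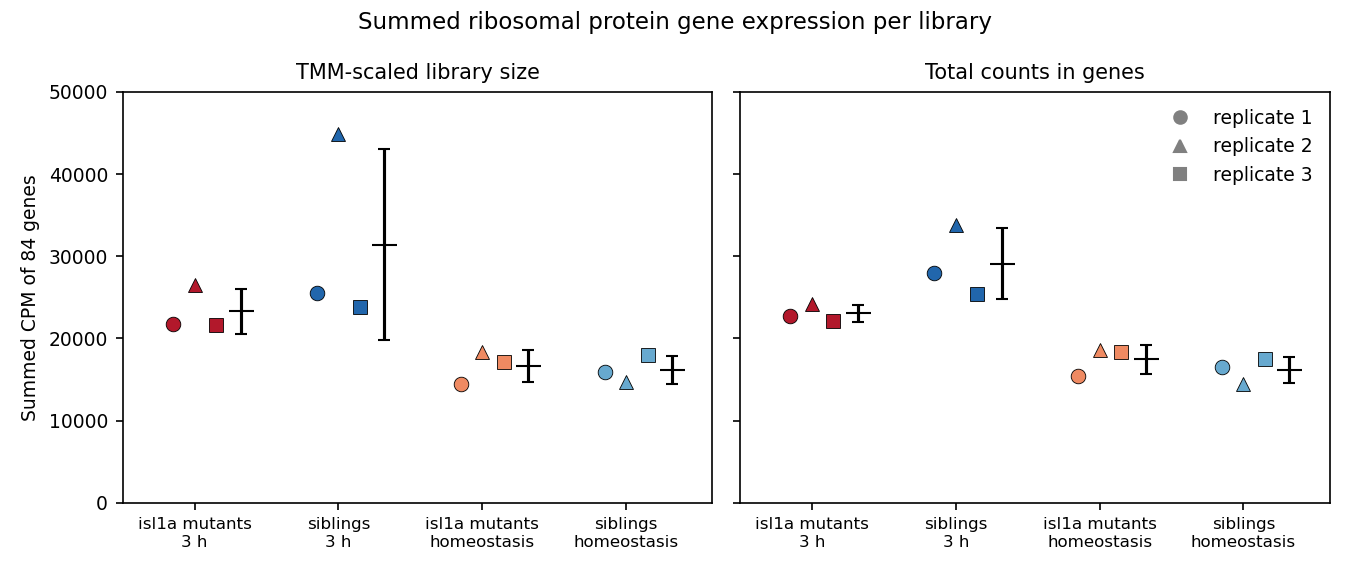
Summed expression of the 84 genes per library, in CPM, scaled by TMM (left) and by total counts in genes (right), with points for the 3 replicates of each group and bars for the mean and SD. Under TMM scaling sibling replicate 2 at 3 h stands at 44838 CPM, far above the other 2 sibling libraries at 25558 and 23842 CPM, and the gap is smaller by total counts.

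The balance between the subunits was nearly constant. The sum of large-subunit genes divided by the sum of small-subunit genes was 1.504, 1.482 and 1.501 in mutants at 3 h, 1.502, 1.433 and 1.497 in siblings at 3 h, 1.505, 1.507 and 1.504 in mutants in homeostasis, and 1.502, 1.51 and 1.486 in siblings in homeostasis. The lowest ratio belonged to sibling replicate 2 at 3 h.

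In siblings, 3 h after neomycin against homeostasis, 79 of the 83 tested genes rose and 1 fell (edgeR's quasi-likelihood test, Benjamini-Hochberg adjusted p under 0.05 over all 22000 genes). Of all tested genes, 11.2% rose and 10.8% fell. The median log2 fold change of the set was 1.02, against 0.10 over all tested genes, and the quartiles of the set were 0.93 and 1.07, against -0.40 and 0.62 over all genes. Among small-subunit genes 33 of 36 rose and 1 fell, with a median of 1.02. Among large-subunit genes 44 of 45 rose, with a median of 0.99. Without sibling replicate 2, where 9.2% of 22615 tested genes rose and 13.1% fell, 66 of 83 rose and 1 fell, with a median of 0.58 against 0.02 over all genes. By subunit, 24 of 36 small-subunit genes and 40 of 45 large-subunit genes then rose. The count was 29 without sibling replicate 2 in homeostasis, 42 without sibling replicate 1 in homeostasis, and 3 in a fit of the sibling libraries alone. Shares of all genes are not given for these last fits, so their counts show only how the calls vary.

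In mutants, 3 h against homeostasis, the same direction was seen with smaller fold changes, and few single genes passed the test. With all libraries 3 genes rose and 1 fell (edgeR's quasi-likelihood test), where 6.95% of all tested genes rose and 9.56% fell. At an unadjusted p under 0.05, 28 were higher, or 33.7% of the set, against 13% of all genes. The median log2 fold change was 0.48, against -0.04 over all tested genes, with quartiles of 0.44 and 0.55. The risers were RPL7L1, rps19bp1 and RPL22L1. All groups share 1 estimate of the spread, so a library outside the comparison enters the test. Without sibling replicate 2 at 3 h, where 12.9% of all genes rose and 14.3% fell, 56 rose and 1 fell, and the median log2 fold change stayed at 0.47. No gene of the set rose when mutant replicate 2 at 3 h or any of the 3 mutant libraries in homeostasis was left out, and 2 rose without mutant replicate 3 at 3 h. In a fit of the mutant libraries alone 48 rose. For the fits without a mutant library and of mutants alone, shares of all genes are not given.

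The CPM values themselves separated more evenly than these calls. In siblings, 79 of 83 genes had all 3 libraries at 3 h above all 3 in homeostasis (17.5% of all tested genes), and 79 also did so without replicate 2 (25.9%). In mutants 78 did so (20.8%). For 76 genes all 6 libraries at 3 h lay above all 6 in homeostasis (7.61%). Among the 7 that did not were rps27.1, rps27.2, rps27l, rps11l, rplp2 and RPS26 (ENSDARG00000037071). A single gene had all 3 libraries at 3 h below all 3 in homeostasis, in mutants (22.7% of all genes) and in siblings (17.2%). The log2 fold change was above 0 for 82 of 83 genes in both genotypes, against 47.4% of all genes in mutants and 55.8% in siblings.

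**Figure D2:**
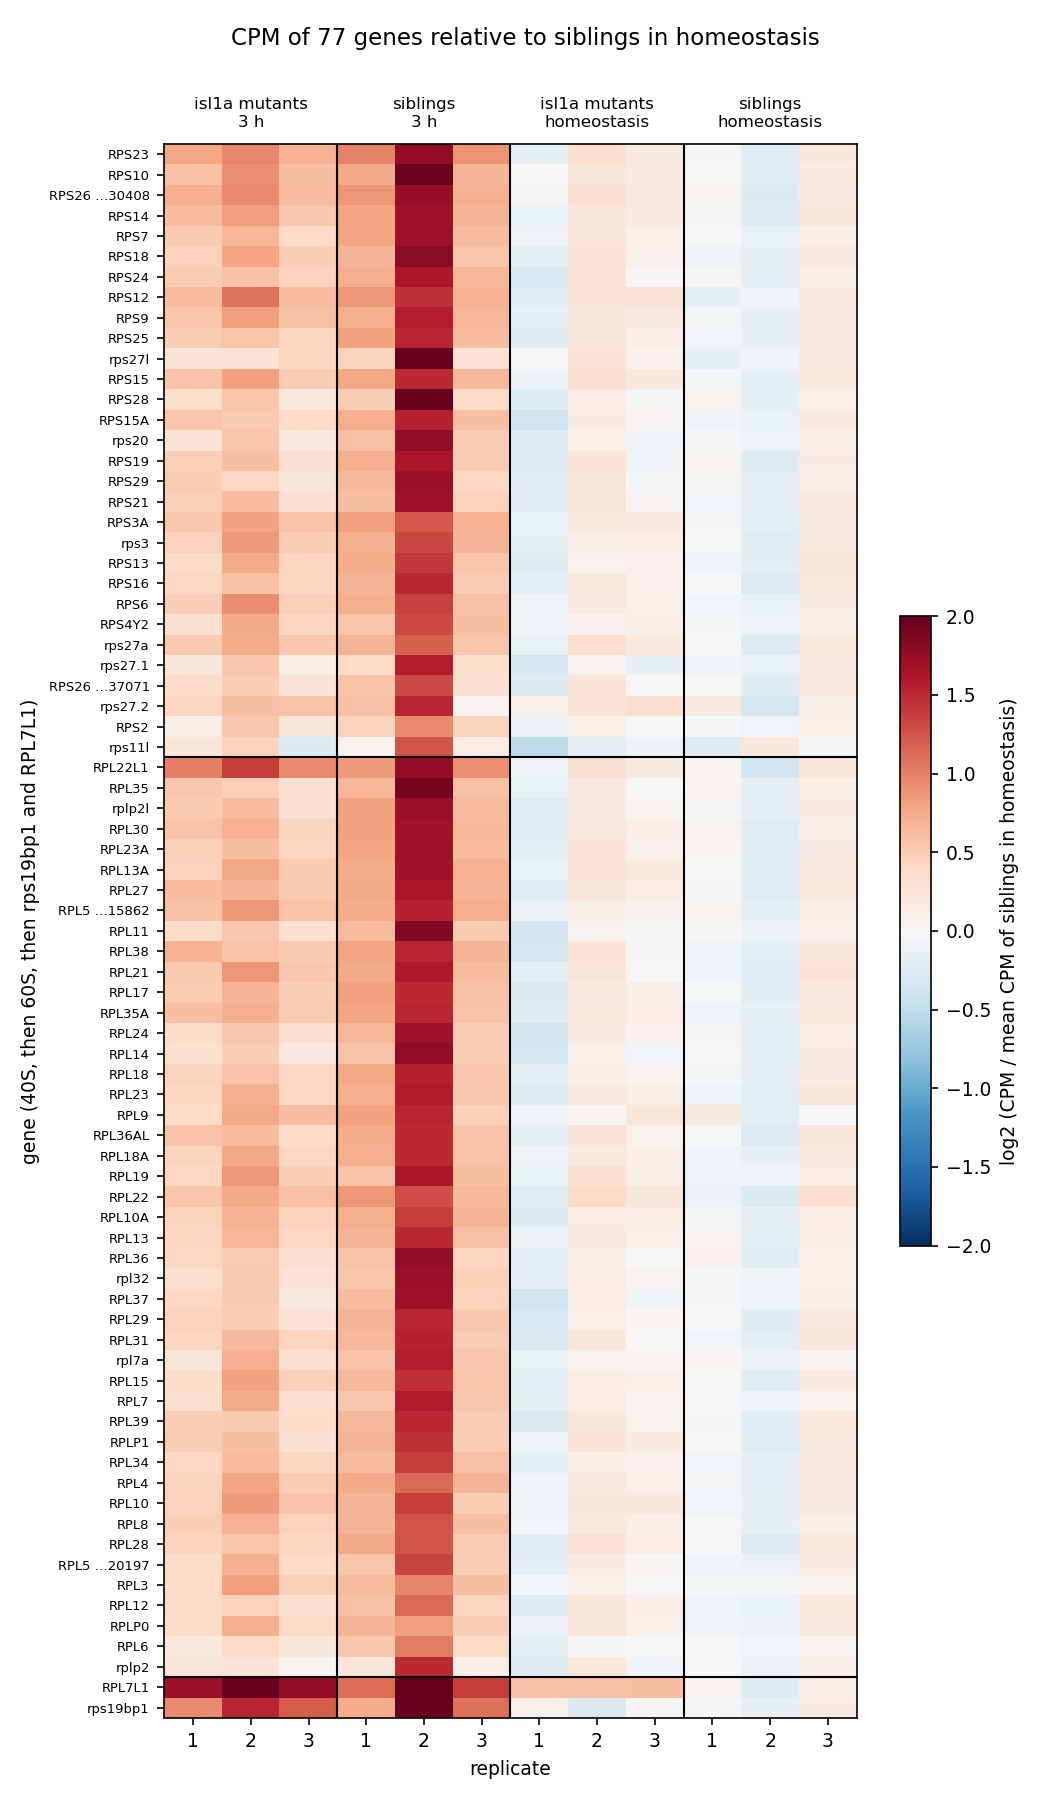
Log2 of the TMM-scaled CPM of 77 of the 83 tested genes, each over its mean in siblings in homeostasis, 1 column per library and 1 line per gene, with colours cut at -2 and 2. Nearly every gene is red in the 6 libraries at 3 h and darkest in sibling replicate 2.

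The difference between both responses was not called for any of the 83 genes. In edgeR's test of the interaction (mutant response minus sibling response) 0 rose and 0 fell, where 0.1% of all genes passed in the positive and 0.00455% in the negative direction. At an unadjusted p under 0.05 there was 1 gene in the positive (4.2% of all genes) and 0 in the negative direction (4.69%). DESeq2 called 0 of the set, with 1 at an unadjusted p under 0.05, and called 335 of all 22000 tested genes. The median interaction of the set was -0.52, against -0.14 over all genes, and 1 value was above 0 (40.1% of all genes). It was -0.10 when sibling replicate 2 was left out and mutant replicate 2 was kept, against -0.01 over all genes. Again 0 were called (0.765% and 0.0752%).

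Mutants and siblings were also compared directly. In homeostasis 0 genes of the set were higher in mutants by edgeR, where 1.85% of all genes were, and 1 was lower, where 1.72% were. At an unadjusted p under 0.05 there were 0 higher (7.76% of all genes) and 1 lower (8.18%). DESeq2 called 1 gene of the set, and 1790 of all 22000 tested genes. The median log2 fold change was 0.04, against 0.01 over all genes, and 59 of 83 values were above 0 (50.6% of all genes). CPM did not overlap for 1 gene higher (14.5%) and 1 gene lower (15.4%) in mutants. At 3 h 0 were higher (4.9% of all genes) and 0 were lower (4.88%) in mutants, with 17 lower at an unadjusted p under 0.05 by edgeR (15.7% of all genes). DESeq2 called 0 of the set, and 3497 of all 22000 tested genes in either direction. It had 15 of the set at an unadjusted p under 0.05 in either direction, for which the share of all genes is not given. With the replicate number as a block in a fit of the 6 libraries at 3 h, 0 were higher (6.71% of all genes) and 0 lower (4.66%), and 2 were lower at an unadjusted p under 0.05 (13.2%), with a median of -0.33 against -0.03 over all genes. The median was -0.45, against -0.14 over all genes, and 0 values were above 0 (40.9% of all genes). Leaving out sibling replicate 2 but keeping mutant replicate 2 gave a median of -0.09, against -0.04, and 11 values above 0. At 3 h 8 genes, or 9.64% of the set, had all 3 mutant libraries below all 3 sibling libraries (13.6% of all tested genes), and 0 had them above (12.3%). Among the 8 were RPL14, RPS25, RPL23A and RPS15A, with narrow gaps. RPL14 had at most 96.85 CPM in mutants and at least 96.91 CPM in siblings, and RPS15A at most 228 and at least 233.1 CPM.

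**Figure D3:**
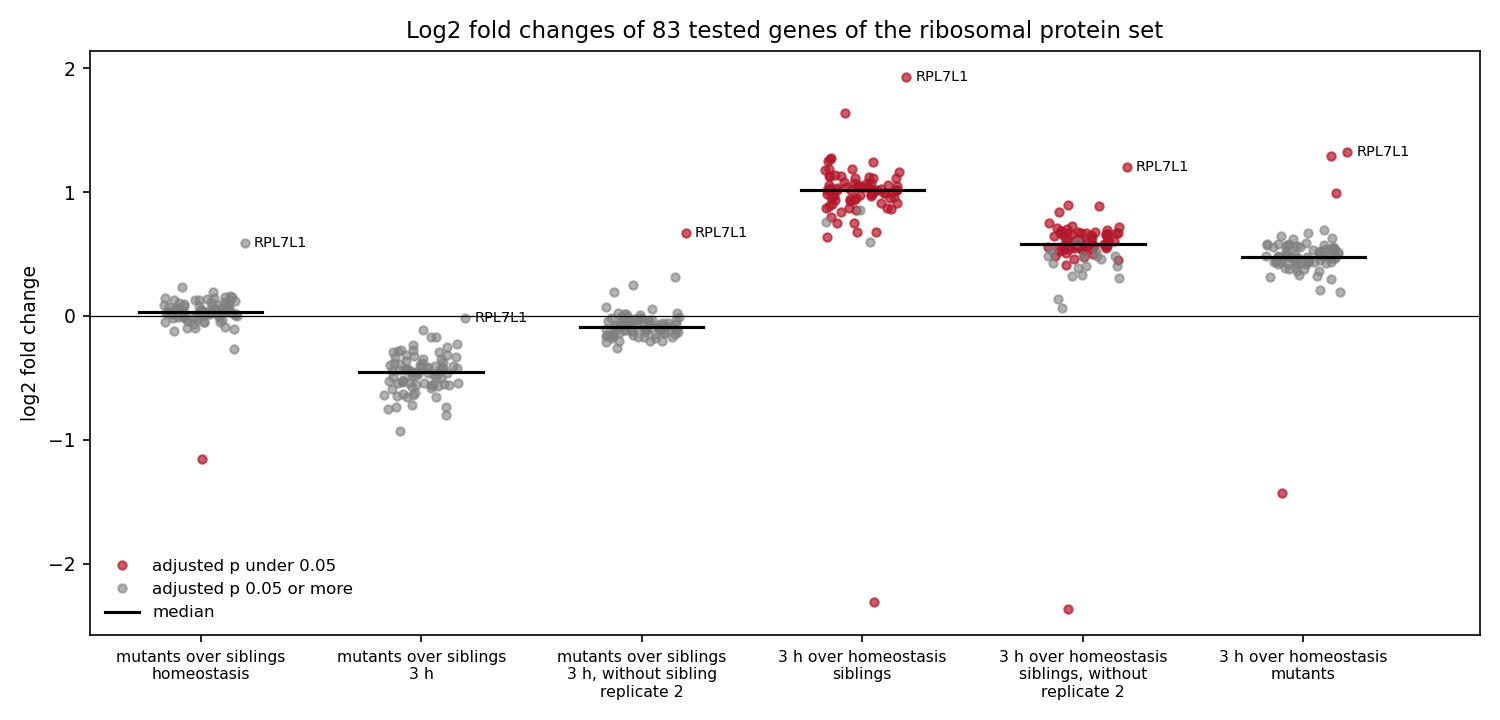
Log2 fold changes of the 83 genes in 6 comparisons, 1 point per gene, red where the adjusted p is under 0.05, with the median as a bar. The cloud sits at a median of 1.02 in siblings and 0.48 in mutants for 3 h over homeostasis, and at 0.58 in siblings once replicate 2 is left out, while RPL7L1 lies above it and a single gene far below it.

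Among the proteins of the small subunit, RPS6, the substrate of the S6 kinases, had 389, 526 and 386 CPM in mutants and 455, 716 and 418 CPM in siblings at 3 h. In homeostasis it had 260, 315 and 297 CPM in mutants and 268, 252 and 312 CPM in siblings. All 6 libraries at 3 h were above all 6 in homeostasis, and the genotypes overlapped at both times. The log2 fold change for 3 h was 0.58 ± 0.23 (SE) in mutants (adjusted p = 0.11, edgeR) and 0.93 ± 0.23 in siblings (adjusted p = 0.011, edgeR). With sibling replicate 2 at 3 h left out, it was 0.56 in mutants (adjusted p = 0.013, edgeR) and 0.61 in siblings (adjusted p = 0.017). Between mutants and siblings in homeostasis it was 0.07 with all libraries, with a 95% interval from -0.42 to 0.55.

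RPS23, a protein of the decoding centre, had the smallest adjusted p among small-subunit genes that rose in siblings. It had 152, 174 and 144 CPM in mutants and 177, 304 and 165 CPM in siblings at 3 h, and 77.8, 112 and 100.4 CPM in mutants and 86.3, 76.0 and 104 CPM in siblings in homeostasis. The times did not overlap in either genotype. Its log2 fold change was 1.28 ± 0.25 in siblings (adjusted p = 0.003, edgeR), or 0.90 without replicate 2 (adjusted p = 0.0031). In mutants it was 0.70 ± 0.24 (adjusted p = 0.072), or 0.68 without sibling replicate 2, where it was called (adjusted p = 0.0075, edgeR). RPS3A, RPS25 and RPS26 (ENSDARG00000030408) were further small-subunit genes among the 10 with the smallest adjusted p in siblings, with log2 fold changes of 0.93, 1.04 and 1.19. rps3, which lines the channel by which mRNA enters the ribosome, rose by 0.94 ± 0.22 in siblings (adjusted p = 0.0079, edgeR) and had 0.56 ± 0.21 in mutants (adjusted p = 0.1). With sibling replicate 2 left out, rps3 had 0.65 in siblings (adjusted p = 0.012, edgeR) and 0.54 in mutants (adjusted p = 0.015).

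RPS2, one of the 5 genes with the most CPM in the set, had one of the smallest rises. It had 817, 1093 and 887 CPM in mutants and 1040, 1449 and 1020 CPM in siblings at 3 h, against 695, 806 and 751 CPM in mutants and 731, 722 and 806 CPM in siblings in homeostasis. The mutant library with the least at 3 h stood just above the highest one in homeostasis. The log2 fold change was 0.64 ± 0.19 in siblings (adjusted p = 0.033, edgeR), but it was not called without replicate 2, and 0.31 ± 0.19 in mutants (adjusted p = 0.32).

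In the large subunit, RPL3, a core protein near the peptidyl transferase centre and the gene with the highest CPM of the set, had 1277, 1741 and 1350 CPM in mutants and 1503, 1919 and 1481 CPM in siblings at 3 h. In homeostasis it had 935, 1044 and 983 CPM in mutants and 943, 956 and 1020 CPM in siblings. The times were well separated in both genotypes. Its log2 fold change was 0.75 ± 0.19 in siblings (adjusted p = 0.012, edgeR) and 0.56 ± 0.18 in mutants (adjusted p = 0.056), or 0.55 with an adjusted p of 0.0071 in mutants without sibling replicate 2. RPL4, which lines the exit tunnel of the nascent peptide, rose by 0.87 in siblings (adjusted p = 0.006, edgeR). RPL9 had few counts, 49 to 129 per library, for a reason that was not tested. RPL9 rose in siblings by 1.00 (adjusted p = 0.04, edgeR). It was not called without sibling replicate 2, at 0.60 (95% interval -0.02 to 1.22, adjusted p = 0.16). RPL19 and RPS4Y2, the symbol of the name table for ENSDARG00000014690, were the remaining genes of high CPM and rose in siblings by 1.02 and 0.87 (adjusted p = 0.019 and 0.015, edgeR).

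RPL5 and RPL11 bind the 5S ribosomal RNA and, outside the ribosome, the p53 regulator MDM2. Both gene IDs named RPL5 rose in siblings, by 1.05 for ENSDARG00000015862 (adjusted p = 0.0053, edgeR) and by 0.85 for ENSDARG00000020197 (adjusted p = 0.02). In mutants their log2 fold changes were 0.65 and 0.49 and were not called with all libraries. With sibling replicate 2 at 3 h left out, both were called in mutants, at 0.63 and 0.48 (adjusted p = 0.0033 and 0.022, edgeR). The sibling values were then 0.69 and 0.47 (adjusted p = 0.0043 and 0.044, edgeR). RPL11 had 132, 146 and 126 CPM in mutants and 156, 365 and 144 CPM in siblings at 3 h, against 78.1, 106 and 98.1 CPM in mutants and 102, 92.6 and 108 CPM in siblings in homeostasis. Sibling replicate 2 was more than any other library by a wide margin. RPL11 rose by 1.14 ± 0.30 in siblings (adjusted p = 0.017, edgeR), or 0.53 without replicate 2 (adjusted p = 0.025). In mutants it had 0.52 ± 0.30 (adjusted p = 0.29), or 0.50 without sibling replicate 2, where it was called (adjusted p = 0.015, edgeR).

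The P stalk of the large subunit, which recruits elongation factors, is built from RPLP0, RPLP1 and RPLP2. RPLP0 had 735, 946 and 750 CPM in mutants and 917, 1016 and 808 CPM in siblings at 3 h. In homeostasis it had 529, 677 and 612 CPM in mutants and 533, 526 and 658 CPM in siblings, so the times did not overlap. It rose in siblings by 0.68 ± 0.19 (adjusted p = 0.022, edgeR), and RPLP1 rose by 0.94 ± 0.25 (adjusted p = 0.016). The third, rplp2, was not called in siblings (0.76 ± 0.31, adjusted p = 0.096), while its paralog rplp2l rose by 1.13 ± 0.26 (adjusted p = 0.0082). The counts of rplp2l came to 95.8%, 103% and 94.2% of those of rplp2 in mutants and 116%, 92.4% and 113% in siblings at 3 h. In homeostasis they came to 80.1%, 77.9% and 86.3% in mutants and 77.7%, 77.0% and 82.2% in siblings. The 6 libraries at 3 h were all above the 6 in homeostasis. Multimapping reads are a separate entry of the count table, so values of close paralogs are uncertain.

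The set holds pairs of close relatives, and ratios within them were described without a test, since an exact permutation test of 3 against 3 libraries cannot give a two-sided p below 0.1. RPL7L1 as a percentage of RPL7 counts differed between the genotypes as well as between the times. It was 58.0%, 60.2% and 58.8% in mutants and 32.6%, 48.5% and 39.3% in siblings at 3 h, against 36.3%, 29.5% and 32.1% in mutants and 22.9%, 19.7% and 22.9% in siblings in homeostasis. Mutants lay above siblings at both times without overlap. RPL22L1 as a percentage of RPL22 was 36.4%, 40.9% and 34.1% in mutants and 26.3%, 37.3% and 32.1% in siblings at 3 h, against 28.5%, 25.2% and 25.6% in mutants and 29.9%, 24.7% and 25.1% in siblings in homeostasis. Here the mutant libraries at 3 h were above the mutant libraries in homeostasis, and the sibling libraries overlapped.

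Further pairs are given by their means or ranges. RPS26 (ENSDARG00000037071) as a percentage of RPS26 (ENSDARG00000030408) averaged 62.6 ± 1.85% in mutants and 62.7 ± 2.51% in siblings at 3 h, against 70.9 ± 5.8% in mutants and 81.7 ± 2.42% in siblings in homeostasis (SD, n = 3 each). RPL5 (ENSDARG00000015862) averaged 97.2 ± 2.12% of RPL5 (ENSDARG00000020197) in mutants and 99.1 ± 1.78% in siblings at 3 h, against 87.7 ± 3.57% in mutants and 86.1 ± 6.23% in siblings in homeostasis. The rps27 relatives were at 13.5% to 25% (rps27l) and 15.3% to 26.0% (rps27.2) of rps27.1.

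The genes that departed from the common pattern were led by RPL7L1 (ENSDARG00000042864), whose yeast relative is a nucleolar factor in the assembly of the large subunit. It had 186, 259 and 192 CPM in mutants and 122, 375 and 146 CPM in siblings at 3 h. In homeostasis it had 84.4, 84.2 and 85.5 CPM in mutants and 59.4, 47.9 and 61.9 CPM in siblings. Mutants exceeded siblings in homeostasis without overlap, and at 3 h they exceeded sibling replicates 1 and 3 but not replicate 2. RPL7L1 rose by 1.93 ± 0.35 in siblings (adjusted p = 0.002, edgeR), a call kept in all 12 fits with 1 library left out, with 1.20 without sibling replicate 2. It rose by 1.32 ± 0.35 in mutants (adjusted p = 0.02), a call lost in 4 of those 12 fits, with adjusted p between 5.8e-05 and 0.075. The mutant value without sibling replicate 2 was 1.31, above the sibling one, and the interaction was 0.10 (adjusted p = 0.89, edgeR).

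Between genotypes RPL7L1 was not called with all libraries, at 0.59 in homeostasis (adjusted p = 0.47, edgeR) and -0.02 at 3 h (adjusted p = 0.98). Without sibling replicate 2 it was higher in mutants by 0.56 in homeostasis (adjusted p = 0.033) and by 0.67 at 3 h (adjusted p = 0.022). It was then the only gene of the 83 higher in mutants, where 3.93% of all tested genes were higher in homeostasis and 7.09% at 3 h. Lower in mutants were then 1 gene in homeostasis (5.27%) and 0 at 3 h (6.02%).

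The second nucleolar factor, rps19bp1, named for its binding to RPS19, had 49.0, 72.8 and 58.9 CPM in mutants and 42.6, 141 and 54.7 CPM in siblings at 3 h. In homeostasis it had 27.3, 20.8 and 25.9 CPM in mutants and 25, 22.9 and 28.5 CPM in siblings. The times were apart in both genotypes, and the genotypes overlapped. It rose by 1.64 in siblings (adjusted p = 0.0067, edgeR) and by 1.29 in mutants (adjusted p = 0.029), the mutant call being lost in 5 of 12 fits with 1 library left out (adjusted p 0.00017 to 0.11). The log2 fold changes without sibling replicate 2 were 1.27 in mutants and 0.89 in siblings, with an interaction of 0.39 (adjusted p = 0.56, edgeR).

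RPL22L1, the paralog of RPL22, had 49.0, 63.6 and 47.0 CPM in mutants and 43.8, 83.4 and 46.0 CPM in siblings at 3 h. In homeostasis it had 22.5, 30.3 and 27.6 CPM in mutants and 25.3, 18.7 and 28.9 CPM in siblings. The times did not overlap. It rose by 1.25 in siblings (adjusted p = 0.0056, edgeR) and by 0.99 in mutants (adjusted p = 0.023), and the mutant call was lost in 4 of 12 fits with 1 library left out (adjusted p 0.0016 to 0.11). With sibling replicate 2 left out, it had 0.84 in siblings (adjusted p = 0.0091, edgeR) and 0.97 in mutants (adjusted p = 0.0016). The interaction was then 0.14 (adjusted p = 0.88, edgeR). With all libraries RPL22 itself rose by 0.95 in siblings (adjusted p = 0.01) and had 0.48 in mutants (adjusted p = 0.19).

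The summed hair cell markers moved opposite to most of the set. All 13 genes of that list were detected, and their sum ranged from 1560 to 3060 CPM in mutants and from 2950 to 9080 CPM in siblings at 3 h, against 15800 to 20300 CPM in mutants and 32700 to 39600 CPM in siblings in homeostasis. The 9080 CPM came from sibling replicate 2, with 5120 CPM of pvalb8 against 1770 and 1470 CPM in replicates 1 and 3. OTOF (ENSDARG00000020581) was instead lower in it, at 137 CPM against 301 and 210 CPM. pvalb8 held most of the sum in homeostasis, with 11700 to 15100 CPM in mutants and 23700 to 29000 CPM in siblings. ATOH1, on the same list, went the other way. It had 95.1, 200 and 110 CPM in mutants and 173, 438 and 200 CPM in siblings at 3 h. In homeostasis ATOH1 had 80.1, 99.6 and 77.5 CPM in mutants and 97.7, 110 and 138 CPM in siblings. The part of the hair cell markers in the rise of the set was not tested.

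**Figure D4:**
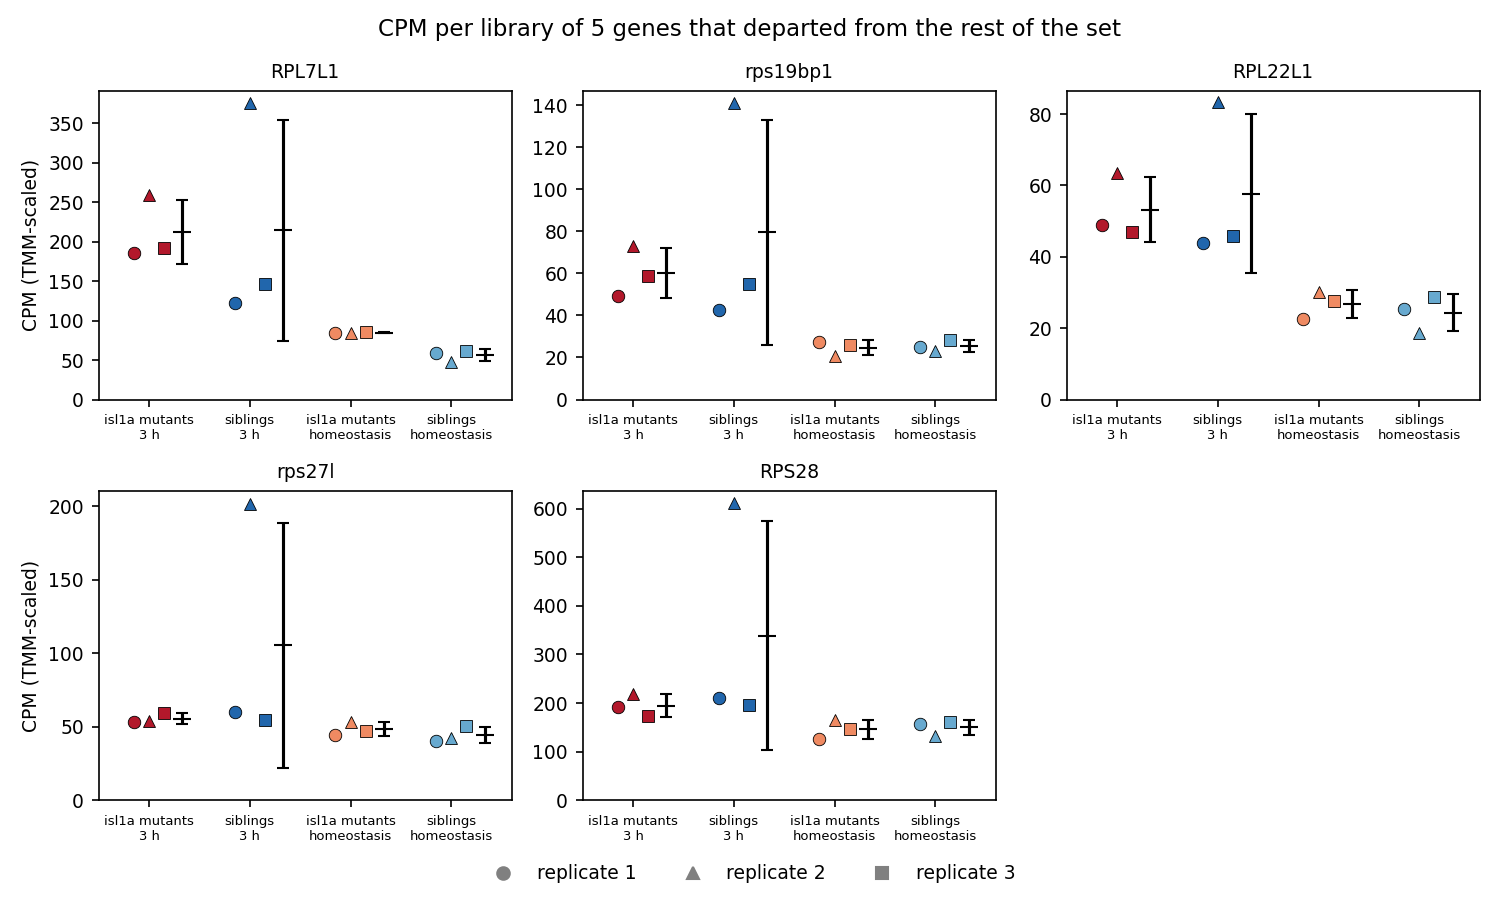
TMM-scaled CPM per library of 5 genes that departed from the rest of the set, with mean and SD, each panel on its own axis from 0. RPL7L1 in homeostasis is at 84.2 to 85.5 CPM in mutants and 47.9 to 61.9 CPM in siblings.

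The genes of the set did not depart equally in sibling replicate 2 at 3 h, which held the highest CPM of the 12 libraries for 82 of the 83 genes. Over the mean of replicates 1 and 3, its CPM was higher by a median factor of 1.86 (range 1.03 to 3.52), against 1.01 over all tested genes. By total counts instead of TMM the median factor was 1.3, against 0.704 over all genes. Above a factor of 2 stood 26 of the 83 genes, or 31.3%, against 18% of all genes. rps27l had the highest factor, 3.52, with 60.3, 202 and 54.2 CPM in the 3 sibling libraries at 3 h. RPS28, a small protein of the 40S subunit, followed at 3.02, with 210, 611 and 196 CPM, and rps19bp1 (2.90) and RPL7L1 (2.80) came next. RPLP0 (1.18) and RPL3 (1.29) were among the lowest.

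Without that library rps27l and RPS28 were no longer called in siblings. In mutants rps27l had 53.0, 53.6 and 59.6 CPM at 3 h, against 44.5, 53.5 and 47.1 CPM in homeostasis, values that lie side by side with a log2 fold change of 0.20 (95% interval -0.64 to 1.04). The genes not called in siblings even with it were rps11l (0.60, adjusted p = 0.22, edgeR), rplp2 and rps27.2 (0.86, adjusted p = 0.057). The median SD of log2 CPM between replicates was 0.148 over the set in mutants and 0.525 in siblings at 3 h, against 0.209 in mutants and 0.178 in siblings in homeostasis. Over all tested genes it was 0.256 in mutants and 0.441 in siblings at 3 h, against 0.191 in mutants and 0.237 in siblings in homeostasis.

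**Figure D5:**
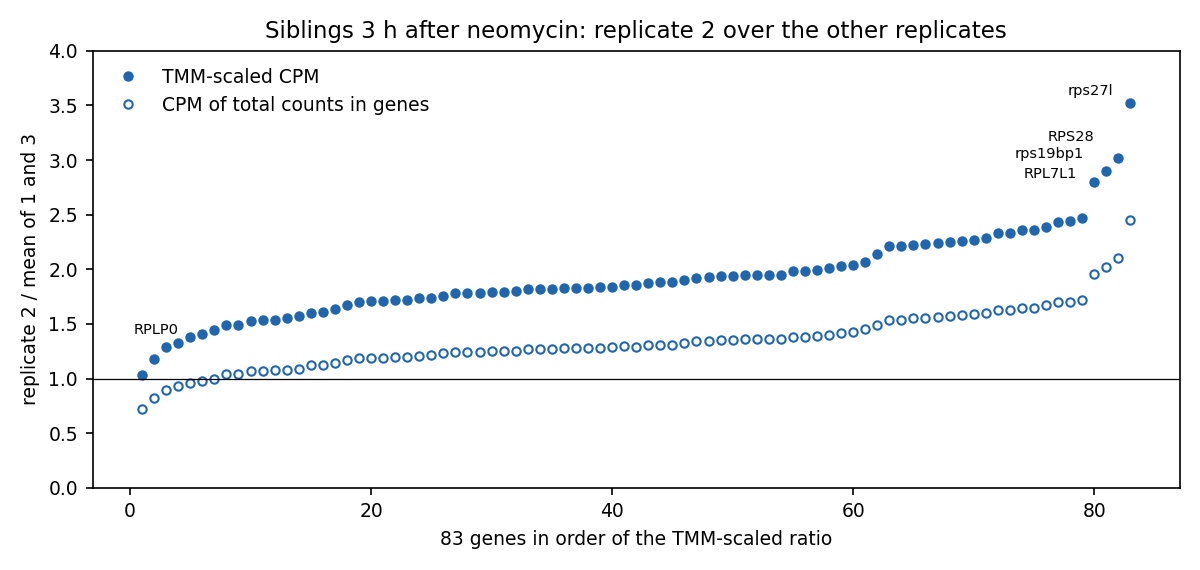
Ratio of sibling replicate 2 at 3 h to the mean of sibling replicates 1 and 3 for each of the 83 genes in order, by TMM-scaled CPM (filled) and by total counts (open), with a line at a ratio of 1. The filled points run from 1.03 to 3.52, the highest for rps27l.

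Genes that serve the same process were described from 4 further lists, none of which shares a gene with the set. Of 41 ribosome biogenesis factors, which process ribosomal RNA and assemble the subunits, 38 rose in mutants and 38 rose in siblings at 3 h, with medians of 1.29 and 1.68 on the log2 scale. Of all tested genes 6.95% rose in mutants and 11.2% in siblings, or 12.9% and 9.2% without sibling replicate 2. When that library was left out 39 factors rose in each genotype, with medians of 1.27 and 1.39. Between mutants and siblings 0 factors were called with all libraries, in homeostasis (1.85% of all genes higher, 1.72% lower) or at 3 h (4.9% and 4.88%). Without sibling replicate 2, 5 factors were higher in mutants in homeostasis (3.93%) and 0 at 3 h (7.09%), with medians of 0.35 and 0.27. Then 0 were lower at either time (5.27% and 6.02%). BOP1, a factor of large-subunit assembly, had 80, 84.9 and 87.1 CPM in mutants and 91.9, 70.5 and 98.7 CPM in siblings at 3 h, against 33.5, 27.4 and 34.8 CPM in mutants and 24.3, 16.8 and 21.3 CPM in siblings in homeostasis. It rose by 1.40 ± 0.19 in mutants (adjusted p = 0.00048, edgeR) and by 2.06 ± 0.20 in siblings (adjusted p = 2.1e-05). For BOP1, sibling replicate 2 at 3 h was the lowest of its group. The small-subunit factors tsr1 and UTP15 rose by 1.33 and 1.45 in mutants and by 1.56 and 1.52 in siblings.

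Of 32 translation initiation factors, 14 rose in mutants (6.95% of all genes) and 24 in siblings (11.2%) at 3 h, with medians of 0.67 and 0.94. Without sibling replicate 2 the counts were 26 (12.9%) and 21 (9.2%). The medians were then 0.67 in mutants and 0.57 in siblings, so the order of the genotypes was reversed. EIF5A2 (ENSDARG00000056186) rose by 1.08 in mutants (adjusted p = 0.00085, edgeR) and by 1.1 in siblings (adjusted p = 0.00056), and EIF3L, a subunit of eIF3, by 0.77 and 1.00. EIF6, which keeps the subunits apart, rose by 1.91 in siblings (adjusted p = 0.0025), or 1.21 without sibling replicate 2.

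A further list held 25 elongation factors and other translation genes of the oligopyrimidine tract class, chosen by name. The tract itself was not looked for in their sequences. Of the 25, 6 rose and 3 fell in mutants, where 6.95% of all genes rose and 9.56% fell. In siblings 15 rose and 3 fell, where 11.2% of all genes rose and 10.8% fell. Without sibling replicate 2, 16 rose in mutants (12.9% of all genes) and 13 in siblings (9.2%), and 3 fell in each (14.3% and 13.1%). npm1a, a nucleolar chaperone, rose by 1.63 in mutants (adjusted p = 0.0039, edgeR) and by 2.52 in siblings (adjusted p = 2e-04). With 1 library left out, these ranged from 1.46 to 1.75 in mutants and from 1.94 to 2.7 in siblings. At 3 h npm1a had 510, 758 and 583 CPM in mutants and 509, 1247 and 563 CPM in siblings, the highest in sibling replicate 2. EEF1A1 (ENSDARG00000069951), 1 of several elongation factor 1-alpha genes, went the other way. It had 8.51, 14.0 and 8.55 CPM in mutants and 19.8, 28.2 and 15.6 CPM in siblings at 3 h, against 97.2, 111 and 82.5 CPM in mutants and 226, 201 and 215 CPM in siblings in homeostasis. The 4 groups did not overlap. The summed hair cell markers given above ran in the same order of groups, with an overlap between mutants and siblings at 3 h, and their part was not tested. It fell by 3.23 on the log2 scale in mutants (adjusted p = 1.9e-05, edgeR) and by 3.34 in siblings (adjusted p = 9.1e-06).

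Of 21 regulators of the mTOR pathway and of these mRNAs, 5 rose and 1 fell in mutants (6.95% and 9.56% of all genes), and 7 rose and 2 fell in siblings (11.2% and 10.8%). Without sibling replicate 2, 7 rose and 3 fell in mutants (12.9% and 14.3%), and 4 rose and 2 fell in siblings (9.2% and 13.1%). MYCN rose by 0.90 in mutants (adjusted p = 0.0054, edgeR) and by 1.36 in siblings (adjusted p = 3e-04). rps6kb1a, an S6 kinase that phosphorylates RPS6, was the regulator called between genotypes with all libraries. Without sibling replicate 2, 1 regulator was higher and 1 lower in mutants in homeostasis (3.93% and 5.27% of all genes), and 2 were higher and 1 lower at 3 h (7.09% and 6.02%). rps6kb1a had 92.4, 72.2 and 82.6 CPM in mutants and 19.0, 16.2 and 19.9 CPM in siblings at 3 h, against 49.5, 42.7 and 40.7 CPM in mutants and 18.0, 12.8 and 11.9 CPM in siblings in homeostasis. Every mutant library exceeded every sibling library. It was higher in mutants by 2.17 ± 0.20 at 3 h (adjusted p = 0.00011, edgeR) and by 1.64 ± 0.20 in homeostasis (adjusted p = 0.0011), calls kept in all 12 fits with 1 library left out.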

How the data were processed

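Expression was measured by RNA-seq, and the 18 ATAC-seq samples of the series were not analysed here. Libraries were made with the SMART-Seq v4 kit, per the labels' protocols. The authors deposited whole-number read counts per Ensembl gene without normalization. STAR 2.7.3a, RSEM, Bowtie2, bcl2fastq 2.18 and the build danRer11 are named, without roles, per the submitters' processing notes. The kit does not mark strand, so overlapping and antisense genes cannot be told apart. The table's 4 entries that name no gene held 28.2% to 35.2% of the reads and were left out. Symbols were found for 29201 gene IDs in a name table, which often gives human-style symbols. Counts come from PCR-amplified reads without molecular identifiers.

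Genes were filtered by filterByExpr (minimum count 10), scaled by TMM and fitted in 1 model of 12 libraries and 4 group means with edgeR 4.0.16 (R 4.3.3). Contrasts were tested two-sided by its quasi-likelihood test, adjusted after Benjamini-Hochberg over every gene that passed the filter, with a threshold of 0.05. SEs were derived from fold changes and F statistics. The fit was tested on simulated data with the same spread for every gene and no deviating library. It therefore does not test how sibling replicate 2 at 3 h affects the calls. Same-numbered libraries of mutants and siblings at 3 h deviated together (3 of 3 correlations above 0.1, range 0.284 to 0.566), so these 6 libraries were also fitted with the replicate number as a block. This pairing comes from the data, not the labels. The alternatives were RLE, no scaling factor, TMM without the set, no filter, DESeq2 1.42.0, only the groups compared, a replicate block, only ribosomal proteins, and each library left out.

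The members and lists were chosen with earlier results of these data known. Named genes are the called ones (at most 10 per direction), those with the 5 highest and 5 lowest CPM, 9 core ribosomal proteins, paralogs, and up to 4 called genes per list. Some genes of the set enter the counts and medians and are not reported here by name. RPS28 and RPL14 were named after their values were seen.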

Additional observations from a re-analysis of the deposited data

How the results depend on the processing

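The number of genes of the set higher in mutants at 3 h than in homeostasis was 3 with all libraries. It was 5 with RLE scaling, 9 with total counts and no scaling factor, 12 with DESeq2, 1 when RPL7L1 and rps19bp1 were left out, 48 with only the groups compared, and 0 to 56 with 1 library left out. The replicate block gave 6. In either direction DESeq2 called 13 of the set, and 4773 of all 22000 tested genes. Shares of all genes are not given for most of these fits, so the counts show only how the calls vary between them. Between other groups than mutants and siblings at 3 h, not every correlation of same-numbered libraries exceeded 0.1, so the numbers were not read as pairs there. The pairing at 3 h, added after seeing the data, changed no call of the set. In siblings the count of 79 fell to 3 with only the groups compared, and ranged from 29 (without sibling replicate 2 in homeostasis) to 81, with 42 without sibling replicate 1 in homeostasis. The block gave 78. The cause was not tested. Medians with 1 library left out ranged from 0.58 to 1.19 in siblings, 0.36 to 0.56 in mutants, -0.624 to -0.086 for mutants over siblings at 3 h and -0.69 to -0.10 for the interaction, where the low end in siblings and the values nearest 0 in the last 2 came without sibling replicate 2 at 3 h. Mutants over siblings in homeostasis had a median of 0.04 with all libraries and -0.0533 to 0.142 with 1 library left out, so its sign was not stable. That comparison gave 1 gene higher with only the groups compared, and 0 to 1 higher and 0 to 1 lower with 1 library left out. At 3 h 0 to 1 were higher. Between genotypes at 3 h, RPL7L1 had -0.02 with all libraries and 0.67 without sibling replicate 2, where it was called. No named gene changed its sign under the alternatives run in a comparison where it was called with all libraries. Shares of counts kept within 1 SD under the other denominators. Low counts limit RPL9, with 49 to 129 per library.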
